A study of Mus musculus with 2 samples.

Results

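A set of cochlear epithelial cells was selected on UMIs of Ceacam16 and Epyc, and compared between ears exposed to noise alone and ears given a drug before the same noise. Ceacam16 encodes a secreted protein of the tectorial membrane, and Epyc encodes epiphycan, a small leucine-rich proteoglycan. A cell was a member if it had at least 500 UMIs (unique transcript molecules), at least 300 genes and at most 20% mitochondrial UMIs. It also needed a UMI of at least 3 of 7 defining genes (Ceacam16, Epyc, Gpx2, Fbxo2, Prss36, Tdrd12 and Zmynd12), 1 of them Ceacam16 or Epyc, and 0 UMIs of Otof, Pou4f3 and Pecam1, markers of hair cells and endothelium. The rule found 1277 of 37556 cells that passed the filters: 518 of 17423 in the noise-only library and 759 of 20133 in the drug library. Levels of the 7 defining genes chose the cells and are given only as a description.

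All ears came from wild-type C57BL/6J mice aged 4 to 6 weeks, and all received noise of 105 dB in an 8 to 16 kHz band for 2 h. The drug, called VPA in the series title, was given at 90 mg/ml before the noise. The noise-only ears were the untreated opposite ears of the same mice, so both groups lack an unexposed ear. Sensory epithelium was dissociated with trypsin 2 days after the noise, and cells of 5 ears per group were captured as 1 library. With 1 library per group there is no replicate spread and no test. Every interval below is an exact 95% interval of counting error only, since a difference between these libraries cannot be told apart from a difference between the treatments.

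Supporting cells are the non-sensory epithelial cells of the cochlear duct. They hold hair cells in place, seal the duct with tight junctions, pass potassium through gap junctions and secrete the tectorial membrane, the gel that overlies the hair bundles. Different kinds lie side by side along the width of the duct: interdental and inner sulcus cells, border and phalangeal cells, pillar and Deiters cells, Claudius cells and outer sulcus cells. Ceacam16 lies on chromosome 7 (19852097 to 19861299, minus strand, GRCm38) and Epyc on chromosome 10 (97644068 to 97682454, plus strand).

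The members' median depth was 2087 UMIs in the noise-only and 1894 in the drug library, against 1144 and 1191 in all other cells. Member UMIs summed to 1553881 and 1933506, and CPM below is a gene's UMIs per 1000000 of these sums. Predicted doublets made up 9.85% of noise-only and 19.4% of drug members. Beyond the members, the drug library had 12.6% predicted doublets against 4.46%, and a median of 6.58% mitochondrial UMIs against 4.82%. One barcode sequence occurred among the members of both libraries.

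Members took a larger share of the drug library. They were 2.97% (2.73 to 3.24) of noise-only and 3.77% (3.51 to 4.04) of drug cells, a ratio of 1.27 (1.13 to 1.42). Members with Epyc and no Ceacam16 UMI were 26.4% (22.7 to 30.5) of noise-only and 36.9% (33.4 to 40.4) of drug members. Those with Ceacam16 and no Epyc UMI were 39.0% (34.8 to 43.3) and 33.7% (30.4 to 37.2), and the others held both. Cells with exactly 3 defining genes, just inside the rule, numbered 183 and 306, and Epcam was found in 79.8% and 70.6% of them. Cells with 2, just outside it, numbered 103 and 171, with Epcam in 35.9% and 36.8%.

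General markers of supporting epithelium were common in the members, while most of those of pillar and Deiters cells were at shares near those in other cells. Epcam, an epithelial adhesion molecule, was detected in 85.1% of the noise-only members and in 76.3% of the drug members, against 6.27% and 7.50% of other cells. S100a1, a calcium-binding protein, was found in 99.4% and 98.6%, against 38.7% and 45.2%. The transcription factor Gata3 was found in 39.2% and 38.9% of members, against 2.88% and 2.68% of other cells, and Sox9 in 50.4% and 39.0% against 9.58% and 11.6%. Sox2, which marks the sensory domain, was found in 17.2% and 13.2%, against 8.18% and 7.23%. The pillar and Deiters cell gene Fgfr3 had a UMI in 1.54% and 2.24% of members, against 0.787% and 1.41% of other cells, and Prox1 in 1.74% and 1.58% against 2.95% and 2.52%. Free RNA can also give shares of this size. Of the same list, Bace2 was found in 6.76% and 6.32% of members against 5.35% and 6.51% of other cells, and Emid1 in 4.05% and 3.16% against 10.2% and 6.04%. Lgr5 stood above other cells, at 3.67% and 5.27% against 1.69% and 1.16%, and was most frequent in cluster 11 (26.1%), described next. With every cell reduced to 1000 UMIs at random and 71 noise-only and 139 drug members too shallow for it, Epcam was found in 66.0% and 56.9% of members and 6.73% and 7.26% of other cells.

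Clustering the members without the defining genes gave 13 groups. Clusters 1, 3, 4, 5, 10 and 11 differed in markers of position across the width of the duct. Cluster 3 had UMIs of Otoa, an anchor of the tectorial membrane, in 80.9% of its cells and of Slc26a4, the anion exchanger pendrin, also in 80.9%. Cluster 4 had Otoa in 41.6% and Slc26a4 in 45.6%. Cluster 5 held Slc1a3, a glutamate transporter of the cells around inner hair cells, in 63.7% and S100a6 in 89.6%. Cluster 1 had Epyc in 97.2%, Gata2 in 35.9% and no Slc26a4 UMI, and cluster 11 had Slc26a4 in 76.1% and Lgr5 in 26.1%. Cluster 10 had Bmp4 in 52.4%, and 57 of its 63 cells came from the drug library, so it may reflect that library.

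**Figure D1:**
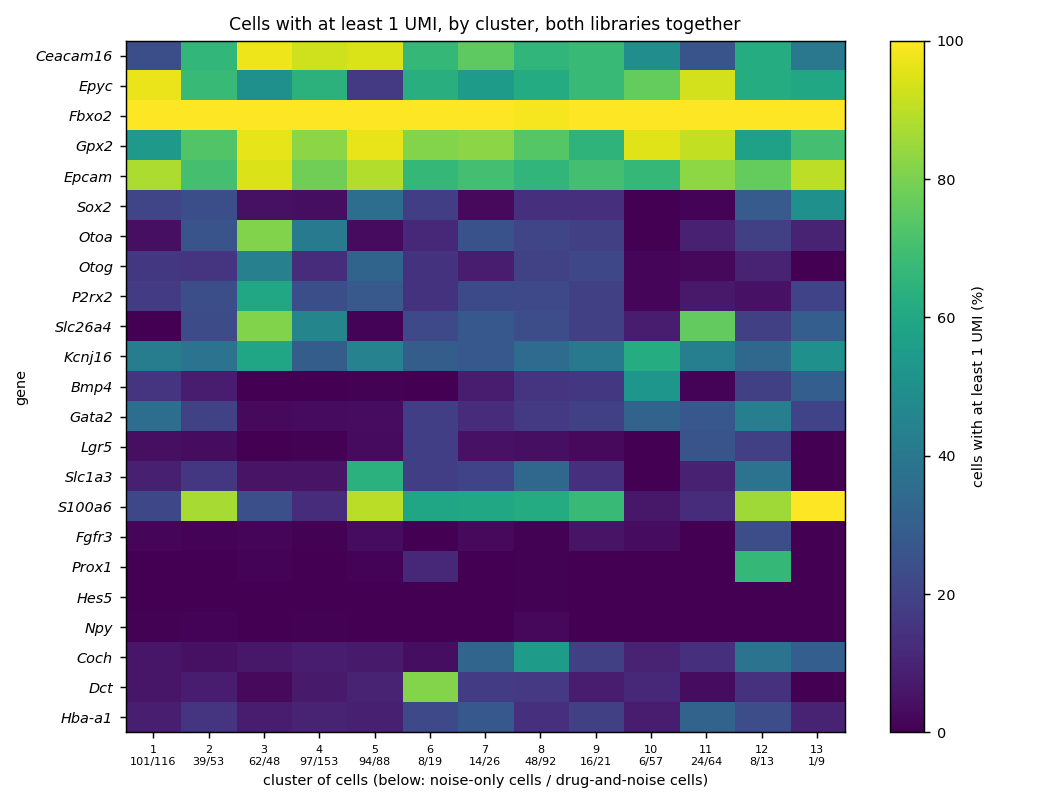
Share of cells with at least 1 UMI (colour, percent) for 23 genes (rows) in each of the 13 clusters of members (columns), both libraries together. Otoa is most frequent in clusters 3 and 4, Slc26a4 in clusters 3, 11 and 4, Slc1a3 in cluster 5 and Bmp4 in cluster 10. S100a6 is frequent in cluster 5 and also in clusters 2, 12 and 13. Fgfr3 and Hes5 are at or near 0 in clusters 1, 3, 4, 5, 10 and 11.

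The remaining clusters were led by genes of other cell types. Genes of Schwann cells led cluster 2, of pigment cells and myelin cluster 6, of macrophages cluster 7 and of endothelium cluster 8. Genes of smooth muscle and pericytes led cluster 9 and of neurons cluster 12, while Krt14, Reg3g and Bpifa1 led cluster 13. Cluster 8 also held the fibrocyte gene Coch in 55.0% of its cells, beside the endothelial gene Emcn in 35.7%. Otos, another fibrocyte gene, was found there in 24.3% and Vmo1, a Reissner membrane marker, in 16.4%. Among members outside clusters 1, 3, 4, 5, 10 and 11, 32.1% of noise-only and 51.5% of drug cells were predicted doublets, against 2.08% and 5.13% inside them. Values are therefore also given for these 6 clusters alone, a choice made after their leading genes were seen. They hold 384 noise-only and 526 drug cells, 2.20% and 2.61% of all cells, a ratio of 1.19 (1.04 to 1.36). Haemoglobin genes led cluster 11, and without it the ratio was 1.11 (0.966 to 1.28). Values weighted by cluster give each of the 6 the share of UMIs it had in the noise-only library.

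In all members, 114 of 5170 genes with at least 100 UMIs were at least 1.5-fold higher in the drug library (2.21% of genes) and 105 at least 1.5-fold lower (2.03%). With TMM scaling in place of plain totals the counts were 134 higher and 73 lower. In the 6 clusters, 55 of 3224 genes were higher (1.71%) and 85 lower (2.64%). At the lower minimum of 20 UMIs used for gene lists, 7.44% of genes in all members were higher and 6.87% lower, and 6.36% and 8.78% in the 6 clusters. Counting error alone puts more genes past the fold at that minimum. The median log2 ratio over these genes was -0.037 in members and -0.058 in the 6 clusters.

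Some heat shock chaperones were higher in the drug library within the 6 clusters, and others were lower. These proteins refold damaged proteins, and the DnaJ members deliver clients to Hsp70. Dnajb1, a DnaJ co-chaperone, stood at 325 CPM in noise-only and 492 CPM in drug cells of the 6 clusters, a ratio of 1.51 (1.31 to 1.74). In all members the ratio was 1.37 (1.22 to 1.55), and in all other cells 0.985. It was higher in the drug library in each of clusters 1, 3, 4, 5 and 11, with ratios of 1.38, 1.38, 1.26, 2.29 and 3.91. Only in clusters 5 and 11 was its ratio past 1.5, and in cluster 5 it rests on 7 and 13 UMIs. Cluster 11, which haemoglobin genes led, held 18 of the 312 noise-only and 148 of the 533 drug UMIs of Dnajb1 in the 6 clusters. Dnaja1, of the same family, had 408 and 543 CPM and a ratio of 1.33 (1.17 to 1.52), against 0.958 in other cells, and was higher in all 5 clusters. Dnajb4, which was not on the list of chaperones, had a ratio of 1.65 (1.20 to 2.29) and 0.985 in other cells, and was also higher in all 5.

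The pattern did not extend to the whole list. Of 17 chaperone genes in the 6 clusters, 1 was at least 1.5-fold higher (Dnajb1) and 1 at least 1.5-fold lower (Hspb8, with 19 and 13 UMIs), with a median log2 ratio of 0.06, and in all members none passed the fold. These shares are near those of all genes. Intervals lay above 1 for 6 genes and below 1 for 4, against 3.19% and 5.88% of all genes with at least 20 UMIs, many of which have fewer UMIs and so wider intervals. Ratios were above 1 in all 5 clusters for 4 genes (3.17% of all genes) and below 1 in all 5 for none (3.94%). Hspe1, the mitochondrial Hsp10, had a ratio of 1.31 (1.12 to 1.54) and was higher in all 5 clusters, while in all members it stood at 1.11 (0.981 to 1.25). Hspa1a, an inducible Hsp70, had 1.29 (1.12 to 1.47), but it stood at 1.07 (0.961 to 1.20) in all members and at 1.43 in other cells. Its reads may be shared with the near-identical Hspa1b. The small heat shock gene Hspb1 was lower, at 437 and 293 CPM and a ratio of 0.671 (0.579 to 0.779), while in other cells it stood at 1.21. It was higher in 3 of the 5 clusters, with 1.10 in cluster 1 and 1.53 in cluster 4. Its highest noise-only cell held 27.4% of its UMIs in the 6 clusters. Bag3, a co-chaperone, had a ratio of 0.681 (0.461 to 0.999). Hspe1 and Hspa1a were named after their values were seen.

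**Figure D2:**
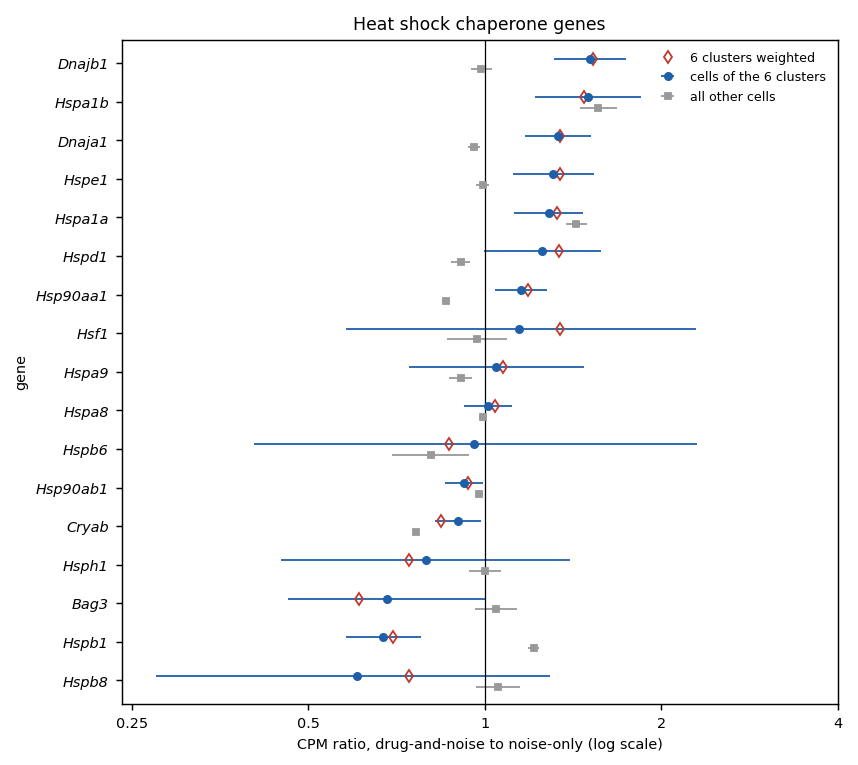
Ratio of CPM in the drug library to the noise-only library (x, log scale) for each chaperone gene (y). Circles are the 6 clusters and squares all other cells, with 95% counting intervals, and diamonds the 6 clusters weighted by cluster. Dnajb1, Dnaja1 and Hspe1 lie above 1 in the clusters and just under 1 in other cells, while Hspb1 lies below 1 in the clusters and above it elsewhere.

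Heat shock factor binds pairs of inverted GAA blocks, so the promoters of the 4 list genes that were higher in all 5 clusters are shown. Each line gives the 250 bases before the first listed transcription start from RefSeq on GRCm38.p6, 5′ to 3′ on the gene's strand, with every GAANNTTC or TTCNNGAA in capitals. Both motifs read the same on either strand, and in Hspe1 the matches overlap.
Hspe1 (chr1:55087898-55088147, plus strand): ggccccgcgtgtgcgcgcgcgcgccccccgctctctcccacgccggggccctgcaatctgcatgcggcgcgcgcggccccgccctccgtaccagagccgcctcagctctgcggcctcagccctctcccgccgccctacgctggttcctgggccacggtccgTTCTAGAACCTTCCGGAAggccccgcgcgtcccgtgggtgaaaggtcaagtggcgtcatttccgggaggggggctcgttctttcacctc
Dnaja1 (chr4:40722218-40722467, plus strand): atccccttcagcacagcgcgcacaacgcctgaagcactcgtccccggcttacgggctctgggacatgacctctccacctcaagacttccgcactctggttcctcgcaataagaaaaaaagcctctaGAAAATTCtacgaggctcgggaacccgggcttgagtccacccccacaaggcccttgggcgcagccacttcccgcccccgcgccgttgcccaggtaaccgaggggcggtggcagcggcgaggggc
Hspa1a (chr17:34972157-34972406, minus strand): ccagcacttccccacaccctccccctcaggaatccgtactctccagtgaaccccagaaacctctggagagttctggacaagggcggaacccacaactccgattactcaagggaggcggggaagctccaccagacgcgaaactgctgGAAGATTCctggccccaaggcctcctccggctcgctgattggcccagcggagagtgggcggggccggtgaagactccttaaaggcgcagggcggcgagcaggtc
Dnajb1 (chr8:83607925-83608174, plus strand): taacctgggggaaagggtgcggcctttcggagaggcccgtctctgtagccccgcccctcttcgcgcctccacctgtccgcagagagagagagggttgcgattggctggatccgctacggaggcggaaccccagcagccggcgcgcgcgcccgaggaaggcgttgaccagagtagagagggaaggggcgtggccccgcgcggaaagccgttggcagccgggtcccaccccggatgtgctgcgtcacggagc
Hspe1 held 3 matches, Dnaja1 and Hspa1a 1 each and Dnajb1 0 in this window. Of list genes with a promoter and a ratio under 1 in the 6 clusters, Hspb1 held 2, Hsph1 1 and Bag3, Hspb6 and Hspb8 0. Of the list's 11 genes with a promoter in the table, 6 held a match, as did 12.9% of 27025 promoters of all genes. The 6 list genes with a match include the near-identical Hspa1a and Hspa1b. Whether matches go with the direction of a ratio was not tested. A match describes the letters and not a bound site.

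Anxa5, S100a6 and S100a10, of the annexin and S100 families, were lower in the drug library, while S100b was higher. Anxa5, which binds phosphatidylserine, stood at 1834 CPM in noise-only and 968 CPM in drug cells of the 6 clusters. Its ratio was 0.528 (0.489 to 0.570), or 0.660 with clusters weighted, and 0.969 in other cells. A UMI of Anxa5 was found in 74.7% and 59.7% of the cells, and in 58.1% and 42.8% at 1000 UMIs per cell. S100a6 stood at 1459 and 642 CPM, a ratio of 0.440 (0.401 to 0.482), 0.591 weighted and 0.823 in other cells, and 0.776 (0.732 to 0.824) in all members. S100a10, which forms a complex with annexin A2, had 474 and 304 CPM and a ratio of 0.641 (0.555 to 0.740), with 0.842 in other cells. All of Anxa5, S100a6 and S100a10 were lower in each of the 5 clusters. Cluster 5 held most S100a6 UMIs, at 1218 and 616, while the other clusters held few, such as 19 and 20 in cluster 4. A UMI of S100a6 was found in 65.38% of noise-only and 51.55% of drug other cells. The part of free RNA in its ratios was not tested. S100a1 had a ratio of 0.883 (0.864 to 0.903) in the 6 clusters and 0.991 weighted. S100a11 had 0.801 (0.716 to 0.896) and 0.916 weighted, but 1.06 (0.977 to 1.15) in all members. S100b had 1.28 (1.06 to 1.55) in the 6 clusters, 1.06 weighted and 1.33 (1.19 to 1.49) in all members.

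The genes of the cytoskeleton and calcium-binding list had a median log2 ratio of -0.18 in the 6 clusters. Of its 21 measured genes, 1 was at least 1.5-fold higher and 2 lower, against 6.36% and 8.78% of all genes. The highest of the list was Pvalb, at 10 and 27 UMIs. Tubb4b, a beta-tubulin of the microtubule bundles, had 626 and 480 CPM, a ratio of 0.767 (0.680 to 0.864), and was lower in all 5 clusters. Actb and Actg1, the cytoplasmic actins, had ratios of 0.886 and 0.907.

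Of 24 genes of epithelial junctions measured in the 6 clusters, 18 had a ratio under 1 and 6 over 1, where 56.3% of all genes had a ratio under 1. Their median log2 ratio was -0.17, or -0.10 weighted and 0.01 in other cells. At least 1.5-fold higher was 1 gene and lower were 2, shares near those of all genes. Epcam stood at 1646 and 1304 CPM, a ratio of 0.792 (0.737 to 0.852). Cldn3, a tight junction claudin, had 0.784 (0.684 to 0.898), with ratios of 0.762 to 0.905 across the 5 clusters. Lsr, a component of tricellular junctions, stood at 57 and 37 UMIs and had a ratio of 0.574 (0.369 to 0.884) against 1.23 in other cells. Cldn14, mutated in recessive deafness, had 0.641 (0.436 to 0.936), and 0.685 in other cells. Krt18, a keratin of simple epithelia, had 0.686 (0.592 to 0.794), but with clusters weighted it stood at 0.807, and it was higher in 3 of the 5 clusters. Cldn7 and Cdh1 had intervals that held 1, at 1.08 (0.951 to 1.23) and 0.958 (0.705 to 1.31).

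**Figure D3:**
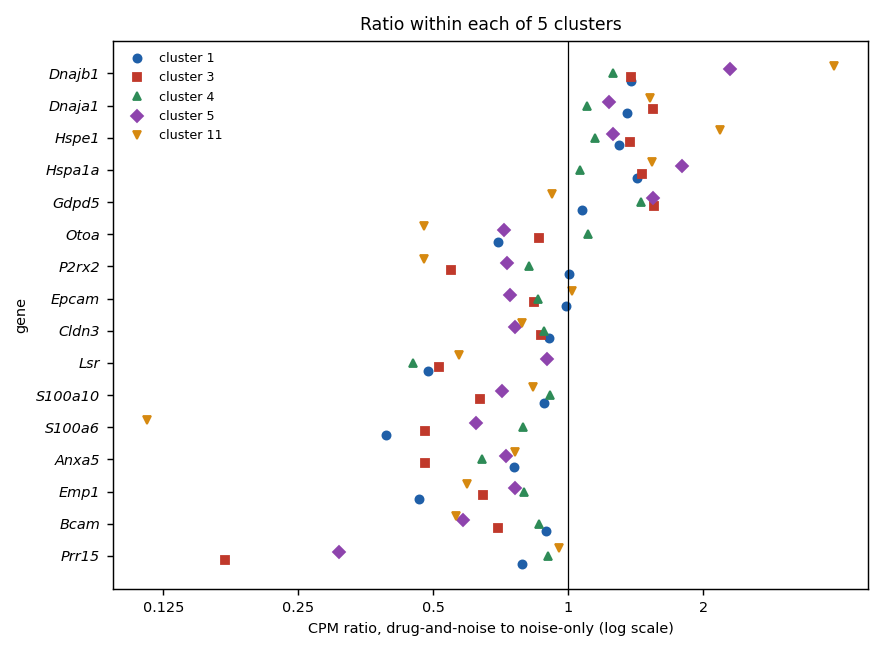
Ratio of CPM in the drug library to the noise-only library (x, log scale) for 16 genes (y) within clusters 1, 3, 4, 5 and 11, 1 symbol per cluster. Dnajb1 and Dnaja1 lie above 1 and Anxa5, S100a6, Bcam, Emp1, Lsr and Cldn3 below 1 in all 5 clusters, while Otoa, P2rx2 and Epcam lie on both sides. Some points rest on few UMIs, such as Lsr in cluster 11 with 5 noise-only and 6 drug UMIs.

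Of single genes with the clearest differences, several were found in at least 2 times as many members as other cells. Bcam, a laminin receptor, stood at 556 and 364 CPM in all members, a ratio of 0.655 (0.592 to 0.724), and 0.673 in the 6 clusters. Emp1, an epithelial membrane protein, stood at 153 and 75.5 CPM, a ratio of 0.493 (0.398 to 0.608), and 0.520 in the 6 clusters. Prr15 stood at 71.4 and 30.5 CPM, a ratio of 0.427 (0.306 to 0.591), and 0.480 in the clusters. All of these were lower in each of the 5 clusters, but some of these ratios rest on few UMIs. Prr15 had 8 noise-only and 1 drug UMIs in cluster 3 and 1 and 2 in cluster 11. Emp1 had 4 and 5 in cluster 11. P2rx2, an ATP-gated channel of the cochlea, stood at 161 and 89.0 CPM, a ratio of 0.553 (0.453 to 0.674), with 0.692 weighted by cluster, and was lower in 4 of 5. Mia, Gsn, Ush1c and Bricd5 had ratios of 0.468 to 0.644 in all members and of 0.645 to 0.784 when weighted. Their direction varied more between clusters: Gsn, an actin-severing protein, was lower in 4 of 5, Ush1c and Bricd5 in 3 and Mia in 2.

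Among higher genes of this kind, several ratios moved toward 1 or past it when clusters were weighted. Npnt, an integrin ligand, stood at 38.6 and 99.8 CPM, a ratio of 2.59 (1.93 to 3.51), and 1.45 weighted. Bmp4, a signalling ligand of the outer duct, stood at 36.0 and 70.9 CPM, a ratio of 1.97 (1.43 to 2.73), and 1.26 weighted. Ucma and Rtn1 had ratios of 1.53 and 1.91 that became 0.893 and 0.883 when the clusters were weighted, so their direction turned. These 4 genes are among the leading genes of cluster 10. Lum, a proteoglycan, had 1.40 and 1.11 weighted, and Nupr1, a stress-induced nuclear protein, 1.43 and 1.16. Gdpd5 had 1.36 and 1.31, and Mfsd6 1.76 (1.21 to 2.62) and 1.96, higher in all 5 clusters.

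Genes common in other cells also differed between the libraries. Ptgds, a prostaglandin synthase, stood at 3278 and 10603 CPM in members, a ratio of 3.24 (3.14 to 3.34), and 2.03 weighted in the 6 clusters. A UMI of it was found in 57.5% and 79.3% of all other cells, in which its ratio was 1.34. Spp1 and Coch, genes of bone cells and fibrocytes, had ratios of 2.95 and 1.85 in members, against 1.44 and 1.56 in other cells. Slc12a2, a chloride cotransporter, and Trf, transferrin, had 1.69 and 1.77, with 1.18 and 1.40 in the weighted clusters. Among lower genes of this kind were Cadm4 at 0.489 (0.362 to 0.655), Fdps, an enzyme of sterol synthesis, at 0.568 (0.427 to 0.754), Fxyd3 at 0.697 (0.641 to 0.757) and Socs3 at 0.707 (0.635 to 0.788). Fdps was lower in all 5 clusters and the other genes in 3. Marker sums of other cell types moved in both directions. A UMI of 10 of 10 macrophage and neutrophil markers was found in members of each library, and their summed level was 737 and 2636 CPM in members, and 42.8 and 195 CPM in the 6 clusters. In members 3 of these were at least 1.5-fold higher and 4 lower, against 7.44% and 6.87% of all genes. S100a8 (85.0 and 1073 CPM) and S100a9 (122 and 1182 CPM) made up most of the drug sum. Schwann cell markers, 9 of 9 present, summed to 1890 and 1467 CPM in the 6 clusters, and the choroid plexus marker to 201 and 28.5 CPM in members. All 5 erythroid markers were present, with 4971 and 21654 CPM in the 6 clusters. Endothelial markers summed to 10.4 and 40.6 CPM there, with Pecam1 at 0 by the rule. The part of such RNA in the results above was not tested.

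**Figure D4:**
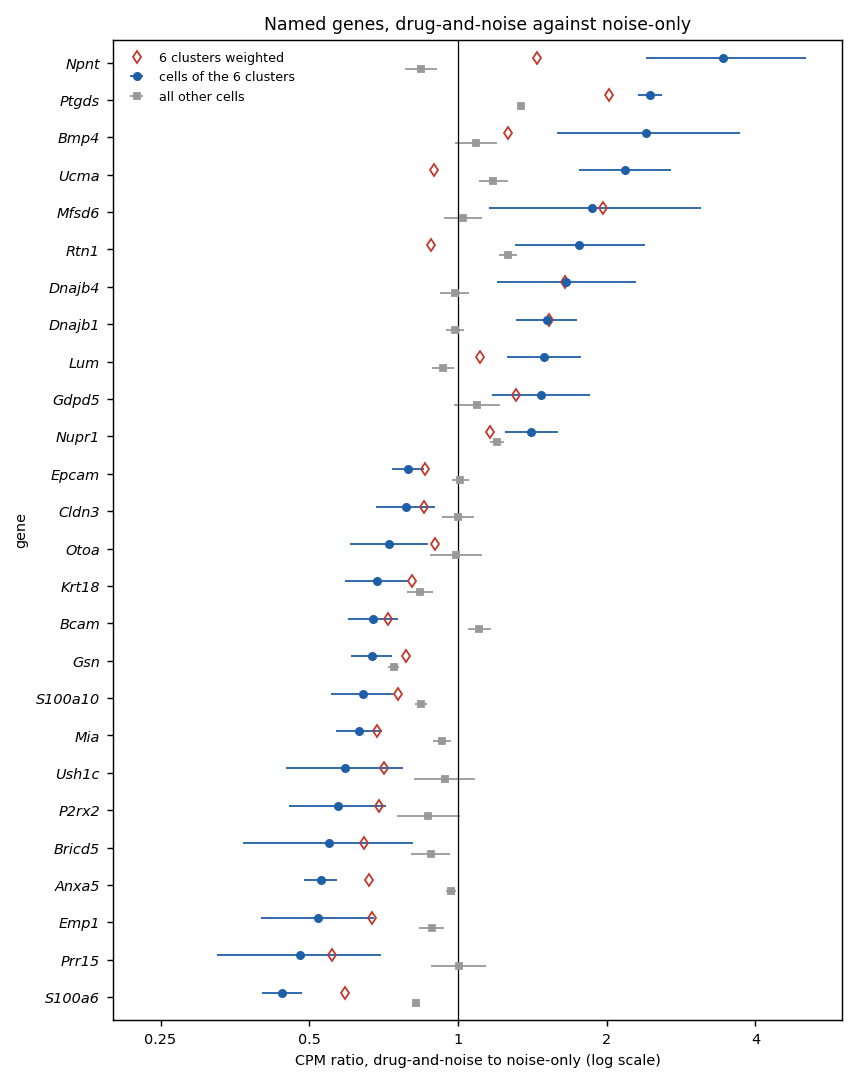
Ratio of CPM in the drug library to the noise-only library (x, log scale) for named genes (y). Circles are the 6 clusters and squares all other cells, with 95% counting intervals, and diamonds the 6 clusters weighted by cluster. Ucma and Rtn1 lie above 1 unweighted and below 1 weighted, while Dnajb1, Anxa5, Emp1 and Prr15 stay on 1 side.

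The tectorial membrane proteins that supporting cells secrete showed no common direction. Of 9 measured in the 6 clusters, 1 was at least 1.5-fold higher and none lower, against 6.36% and 8.78% of all genes. The median log2 ratio of the 9 was 0.12, or -0.02 weighted. Otogl, an otogelin relative, had 1.69 (1.18 to 2.47), with 1.21 weighted, and Otog itself 0.705 (0.568 to 0.874), with 0.932 weighted. Otoa had 0.727 (0.606 to 0.872), with 0.897 weighted, and was lower in 4 of 5 clusters. Ceacam16, which chose the cells, had 0.888 and 1.07 weighted, and Epyc 1.24 and 1.15. Tecta and Tectb, the tectorins, were at or near 0 in every cluster.

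Markers of inner border and phalangeal cells were lower, and their median stayed below 0 with clusters weighted. All 4 measured in the 6 clusters were at least 1.5-fold lower, where 8.78% of all genes with at least 20 UMIs were. The 4 had a median log2 ratio of -0.97, or -0.77 weighted and -0.11 in other cells. Besides S100a6, these were Slc1a3, at 208 and 125 CPM and a ratio of 0.605 (0.483 to 0.756), Fabp7 with 33 and 22 UMIs, and Lgr6 with 18 and 7. Slc1a3 had a weighted ratio of 0.782 and was lower in 3 of 5 clusters. Cluster 5, where Slc1a3 and S100a6 were most frequent among the 6, held 94 of 518 noise-only and 88 of 759 drug members, and cluster 3, where Otoa and P2rx2 were most frequent, 62 and 48. Of 7 outer sulcus and root cell markers, 2 were at least 1.5-fold higher and 2 lower, against 6.36% and 8.78% of all genes. The lower ones were P2rx2 and Anxa1, and 1 noise-only cell held 72.4% of the 243 Anxa1 UMIs in that library. The higher ones were Bmp4, described above, and Lrp2 with 8 and 24 UMIs.

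Potassium and gap junction genes were mixed. Gjb2 and Gjb6, the connexins of the supporting cell network, had ratios of 0.914 (0.818 to 1.02) and 1.09 (0.928 to 1.28) in the 6 clusters. Slc26a4 had 1.14 (0.998 to 1.31) and Kcnj16, a potassium channel, 1.03 (0.882 to 1.20). Of the list's 22 measured genes, 5 were at least 1.5-fold higher and 2 lower. Of all genes with at least 20 UMIs there, 6.36% were higher and 8.78% lower.

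Of the list of supporting cell transcription factors and Notch genes, Sox2, Sox9, Sox10 and Gata3 lay near 1, while some others differed. These 4 had ratios of 0.933, 0.974, 0.939 and 1.07 in the 6 clusters, each with an interval that held 1. In all members Sox9 had 0.832 (0.738 to 0.940) and Sox10 0.822 (0.708 to 0.955). Of 27 genes of this list in the 6 clusters, 4 were at least 1.5-fold higher and 2 lower, against 6.36% and 8.78% of all genes. Heyl, a Notch effector, had 0.620 (0.430 to 0.890) and Hey1 1.77 (1.05 to 3.06). Fst, the activin-binding protein follistatin, had 18 and 87 UMIs, a ratio of 4.28 (2.55 to 7.55), 3.15 weighted and 1.39 in other cells, and its highest noise-only cell held 27.8% of its UMIs.

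Lists of stress and defence genes differed in size and direction. Among all genes with at least 20 UMIs in the 6 clusters, 6.36% were at least 1.5-fold higher and 8.78% lower. For antioxidant and glutathione genes the median log2 ratio was -0.04 in the 6 clusters, with 2 of 28 at least 1.5-fold higher and none lower. Interferon response genes had -0.21, with 1 of 24 higher and 3 lower. Ifit1 and Ifit3 had ratios of 0.669 (0.522 to 0.855) and 0.576 (0.383 to 0.859), and were also lower in other cells, at 0.71 and 0.79. Of 17 unfolded protein and stress genes none passed the fold, and Ddit3, a transcription factor of the integrated stress response, had 1.45 (1.11 to 1.91) and was higher in all 5 clusters, against 1.14 (0.915 to 1.43) in all members and 0.856 in other cells. All 8 measured histone deacetylase genes stayed within 1.5-fold, with a median log2 ratio of -0.04. Metallothioneins, which bind zinc, had a median log2 ratio of 0.61 with 2 of 3 at least 1.5-fold higher, with Mt1 at 180 and 281 CPM and a ratio of 1.56 (1.29 to 1.89). Mt1 was found in 23.2% and 30.4% of cells of the 6 clusters, and in 71.3% and 69.8% of other cells. Mitochondrially encoded genes were higher by a median log2 ratio of 0.33, and by 0.39 in other cells.

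**Figure D5:**
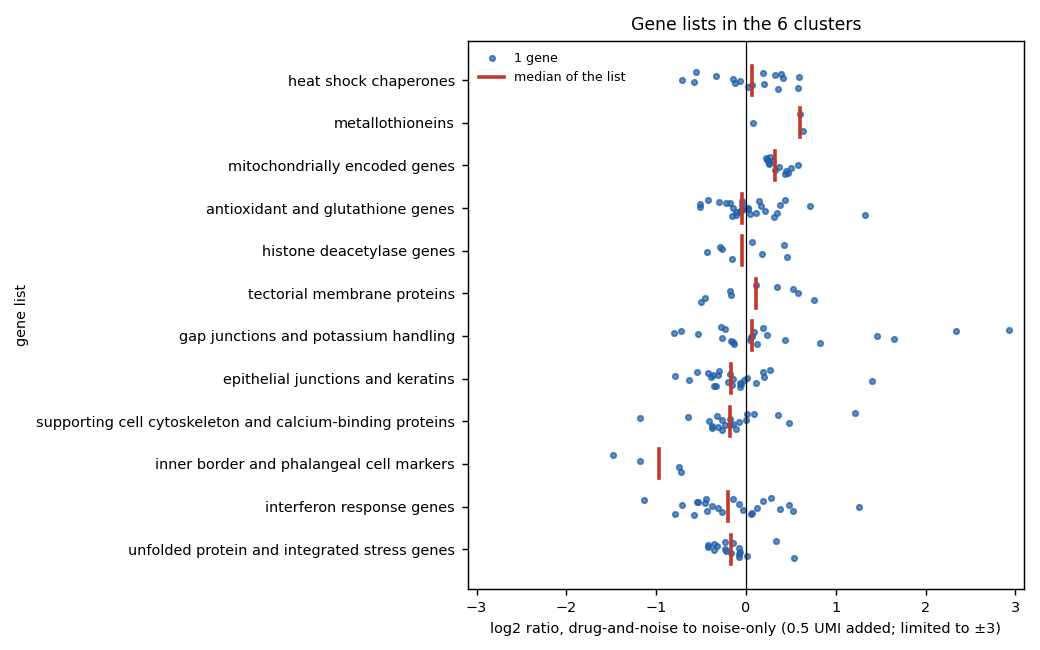
Log2 ratio of CPM in the drug library to the noise-only library (x) for 12 gene lists (y) in the 6 clusters, 1 point per gene with at least 20 UMIs, red bars at the list medians and values limited to the range shown. Inner border and phalangeal markers (median -0.97) lie to the left and mitochondrially encoded genes (0.33) to the right of 0, while heat shock chaperones spread to both sides.

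Beyond the rule, some genes had a far higher level in members than in other cells. By the ratio of CPM in members to other cells, taken in the library where it was smaller, the leading genes were Hsd17b6 (62.1), C2cd4b (57.5), Rubie (44.9), Tcap (37.8), Kcnj16 (32.6), Tmprss3 (29.0), Fut2 (24.4), Slc26a4 (23.3), Rspo2 (21.6) and Padi1 (17.3). Their shares varied between clusters: Slc26a4 had no UMI in cluster 1, Tcap was a leading gene of cluster 3, and Kcnj16 was found in 27.5% to 61.9% of the cells of each cluster. Hsd17b6 encodes a steroid dehydrogenase, and Tmprss3 is a serine protease mutated in hereditary deafness. The comparison with 170 noise-only and 217 drug cells that held Slc26a4 but neither Ceacam16 nor Epyc showed 21.9 and 38.9 CPM of Kcnj16, against 264 and 236 CPM in members. C2cd4b had 10.2 and 15.0 CPM in these cells, against 159 and 125 in members. In 91 and 164 cells with UMIs of at least 2 of 6 hair cell genes, Tmprss3 had 74.6 and 47.7 CPM, against 93.3 and 75.0 in members.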

How the data were processed

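Each deposited matrix gives whole-number UMI counts by gene and cell barcode, as output of Cell Ranger 5.0.1, per the file headers. The tools listed per the submitters' processing notes are Cell Ranger 5.0, STAR and Seurat 3.2.2, with the builds mm10 and GRCm38. No label or header used here names the annotation release. Depth ran from 500 to 30219 UMIs per cell, and 111 barcode sequences occurred in both lists.

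UMIs were summed per gene over members. Ratios carry exact conditional binomial 95% intervals, shares exact Clopper-Pearson intervals, and log2 ratios 0.5 UMI added to each sum. Members were clustered with scanpy 1.11.5 (2000 variable genes without the 10 rule genes, 20 components, 15 neighbours, Leiden resolution 0.5, no integration). Scrublet predicted doublets with an expected rate of 0.08, and these were kept except in an alternative. TMM factors came from edgeR 4.0.16. The steps were tested on simulated data.

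Single genes were named by rank of the interval bound nearest to 1, with at least 100 UMIs, a UMI in at least 10% of members and at most 20% of UMIs in 1 cell, 10 per direction among genes whose share of members was at least 2 times that in other cells, and 5 per direction among the remaining genes. List genes were named under their lists. The members and lists were chosen with earlier results of these data known. Promoters are from RefSeq, and gene positions from GENCODE M21. Some items are not reported here.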

Additional observations from a re-analysis of the deposited data

Results flagged for a closer look

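Among genes named in the text and outside the rule, 14 lay on opposite sides of 1 in members and in all other cells. Neither interval held 1, and the interval in the 6 clusters lay on the members' side of 1. Gjb2 at 0.874 (0.795 to 0.961) against 1.07 (1.03 to 1.11) and Sox9 at 0.832 (0.738 to 0.940) against 1.13 (1.08 to 1.18) were left out. Their intervals in the 6 clusters held 1. The difference between the sets was not tested, and the share of all genes that meet the same criterion was not counted. The intervals in the 6 clusters are not weighted by cluster. Weighted, S100a1 stood at 0.991 and was lower in 3 of the 5 clusters, and Lum at 1.11 and higher in 3. Dnaja1 stood at 1.345 weighted and was higher in all 5. Lower in drug members and higher in other drug cells were Bcam at 0.655 against 1.10 (1.05 to 1.17), Fxyd3 at 0.697 against 1.04 (1.02 to 1.07), Slc1a3 at 0.70 against 1.24 (1.19 to 1.302), Lsr at 0.664 against 1.23 (1.12 to 1.37), Heyl at 0.620 against 1.25 (1.10 to 1.42) and Hspb1 at 0.847 against 1.21 (1.19 to 1.24). The same held for S100a1 at 0.829 against 1.16 (1.14 to 1.18), Il33 at 0.590 against 3.03 (2.59 to 3.56) and Anxa1 at 0.510 against 1.22 (1.18 to 1.26), where 1 cell held 59.5% of the noise-only members' UMIs. Higher in drug members and lower elsewhere were Npnt at 2.59 against 0.842 (0.780 to 0.908), Lum at 1.40 against 0.931 (0.885 to 0.980), Dnaja1 at 1.18 against 0.958 (0.935 to 0.982), Mt1 at 1.18 against 0.983 (0.973 to 0.994) and Pvalb at 1.33 against 0.981 (0.963 to 0.999).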

How the results depend on the processing

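The share ratio stayed above 1 under each alternative, and without cluster 11 it was 1.11. Against 114 genes higher and 105 lower, higher and lower counts were 194 and 177 by the mean of each cell's CPM, 42 and 37 after thinning, 314 and 300 at 50 UMIs, 29 and 23 at 300 UMIs, 45 and 66 in the weighted 6 clusters and 54 and 68 in clusters 1, 3, 4, 5 and 10. Higher and lower counts were 49 and 91 with at least 4 defining genes, 75 and 100 without predicted doublets and 55 and 85 in the 6 clusters. TMM factors gave 134 higher and 73 lower. The cause was not tested, beyond fewer cells or genes entering some settings. Ratios that turned were Ucma at 0.770 (all clusters weighted) and 0.893 (6 weighted), Rtn1 at 0.883 (6 weighted), Lgr5 at 0.963 (without cluster 11) and Tecta at 2.11 (without cells holding a UMI of markers of other cell types). List medians on the log2 scale were, for interdental markers, -0.40 (at least 4 genes) and -0.46 (6 clusters); outer sulcus, 0.19 with and 0.19 without cluster 11; Reissner membrane, -1.55 (at least 2 genes) and -1.84 (at least 4). Immediate early genes had 0.016 in the 6 clusters and 0.13 weighted. Metallothioneins ranged from 0.080 (thinned) over 0.13 (no doublets), 0.18 (at least 4 genes), 0.53 (weighted), 0.59 (without cluster 11) and 0.61 (6 clusters) to 1.08 (without cells holding such markers). Mitochondrially encoded genes had 0.14 in that last setting and 0.25 thinned. Settings by cluster were chosen after seeing the data. No paired analysis was possible because each group is 1 library of pooled ears. No library could be left out for the same reason. Depth limits genes of few UMIs: a count of 0 in members allows up to 1.93 CPM in the noise-only and 1.55 CPM in the drug library.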

Other observations

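Immediate early genes stood near 1 in the 6 clusters. None of 22 was past 1.5-fold in either direction, where 6.36% of all genes with at least 20 UMIs were higher and 8.78% lower. Junb and Atf3, transcription factors of early stress responses, had ratios of 1.01 (0.962 to 1.06) and 0.984 (0.912 to 1.06). With clusters weighted they stood at 1.09 and 1.14, and both were higher in each of clusters 1, 3, 4, 5 and 11. These genes and Il33 were named after their values were seen. Cytoplasmic ribosomal protein genes, 80 measured, had a median log2 ratio of -0.02 and none past the fold, as did 28 nuclear respiratory chain genes at -0.01. MHC class I presentation genes had -0.05, with none of 12 past the fold. Il33, an alarmin cytokine, stood at 43 and 27 UMIs and a ratio of 0.555 (0.330 to 0.920), against 3.03 in other cells.

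A look across the 3223 gene symbols with at least 100 UMIs in the 6 clusters, made after the values were seen, found 122 (3.79%) higher and 182 (5.65%) lower in all of clusters 1, 3, 4, 5 and 11. Of these, 17 were at least 1.5-fold higher and 26 at least 1.5-fold lower with clusters weighted. Besides Dnajb1, Dnajb4 and Ptgds, the higher ones included Tug1, a long non-coding RNA, and the lower ones, besides Anxa5, S100a6, Prr15 and Fdps, included Arpc1b, a subunit of the actin-nucleating Arp2/3 complex.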
